A study of Mus musculus with 15 samples.

Results

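The exon junction complex and the nonsense-mediated decay factors that read it were described in RNA sequencing of lineage-negative mouse bone marrow cells. The set held 9 genes, Rbm8a, Magoh, Magohb, Eif4a3, Casc3, Upf1, Upf2, Upf3a and Upf3b, of 45706 genes listed. The list was drawn up by function around Rbm8a, whose counts were already known to be higher in mTerc-/- libraries and which lies near the deleted Terc locus. Those counts therefore chose the set, so differences of the 9 genes with loss of mTerc are given below as a description. Nothing rests on the calls of these genes in the comparisons of mTerc. All 9 genes were among the 18983 genes with enough counts to be fitted.

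The exon junction complex is a set of proteins left on spliced mRNA just upstream of each junction. EIF4A3 clamps onto the RNA, the MAGOH and RBM8A (Y14) heterodimer locks the clamp, and CASC3 joins the assembled complex in the cytoplasm. A complex left downstream of a stop codon recruits UPF3B or UPF3A, UPF2 and the helicase UPF1, which mark the mRNA for decay.

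The study asked how loss of PUMA, a BH3-only protein that drives p53-dependent apoptosis, affects blood formation in mice without telomerase RNA. RNA came from marker-depleted femoral marrow of irradiated CD45.1 secondary recipients of LSK stem and progenitor cells from CD45.2 C57BL/6J donors. The cell separation removed cells that carry lineage markers and did not select donor cells, so residual host cells can be present. Both alleles were germline deletions, not restricted to blood cells. The WT group (3 libraries) carried neither deletion, and the Puma-/- group (4 libraries) lacked Puma alone. The G3 mTerc-/-Puma+/+ group (4 libraries) lacked mTerc in the third generation, in which telomeres have shortened. The G3 mTerc-/-Puma-/- group (4 libraries, of which 3 were fitted) is labelled as lacking both. Replicate 2 of the last group was left out of the fit, as in the expression plots of the study. Loss of mTerc, short telomeres and the chromosome segment around the deleted allele came together in every mTerc-/- library and cannot be told apart.

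Libraries held 102790519 to 158367059 counts in genes. Terc itself had 4 to 17 counts in the libraries with mTerc and 0 or 1 in the libraries without it. Bbc3, the gene for PUMA, had 5.04 to 6.83 CPM in the Puma-/- libraries but 13.5 to 17.1 CPM in the libraries labelled G3 mTerc-/-Puma-/-, beside 9.71 to 23.6 CPM in WT. The Puma genotype of that group is therefore used only as labelled. Xist and Ddx3y also differed between libraries. Ddx3y, on the Y chromosome, was at most 0.0448 CPM in the Puma-/- libraries, and at least 21.3 CPM in WT and 42.8 CPM in G3 mTerc-/-Puma+/+. It ran from 2.88 to 46.0 CPM in the libraries labelled G3 mTerc-/-Puma-/-. Xist was at least 466 CPM in Puma-/-, at most 418 CPM in WT and at most 88.9 CPM in G3 mTerc-/-Puma+/+. Comparisons that involve Puma-/- therefore also differ in sex-linked RNA. Progenitor markers (Kit, Cd34, Flt3, Mpo and Ly6a) summed to 7581 to 12629 CPM. Targets of lineage antibodies summed to 365 to 588 CPM, most of it Ptprc. Of the Ptprc products the lineage antibodies bind only the B220 form, which counts per gene do not separate. The sum therefore does not measure lineage-positive cells. Markers of late neutrophils summed to 62.4 to 169.7 CPM in WT, 35.4 to 261 CPM in Puma-/-, 124 to 198 CPM in G3 mTerc-/-Puma+/+ and 205 to 596 CPM in the libraries labelled G3 mTerc-/-Puma-/-. Averaged over both Puma states, 2 of 3 megakaryocyte markers were lower in the mTerc-/- libraries, as was 1 of 5 B cell markers. These were calls of edgeR at an adjusted p under 0.05, which 0.263% of all genes passed in either direction. The megakaryocyte markers summed to 114 to 247 CPM in WT, 268 to 437 CPM in Puma-/-, 136 to 182 CPM in G3 mTerc-/-Puma+/+ and 108 to 162 CPM in the remaining group. The Puma-/- sums were thus above all others, while those of WT overlapped both groups without mTerc. No marker of these lists was at 0 in every library, and their part in the results below was not tested. Bulk counts cannot tell fewer cells of a type from less RNA per cell.

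Sequences are shown first for the genes that have a close copy, because a read can be assigned to a gene only where copies differ. The coding sequence of Rbm8a and that of its copy on chromosome 1, Rbm8a2, had 97.7% of 525 bases in common, with a shared run of 116 bases. The first 90 bases of each coding sequence, from the annotated transcripts, differ at the base in capitals.
Rbm8a: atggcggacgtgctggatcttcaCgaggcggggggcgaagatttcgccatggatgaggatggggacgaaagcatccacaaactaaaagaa
Rbm8a2: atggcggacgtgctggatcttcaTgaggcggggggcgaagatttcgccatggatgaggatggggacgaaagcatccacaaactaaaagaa

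Magoh and Magohb, a paralogous pair on chromosomes 4 and 6, differed far more. They had 81% of 441 aligned coding bases in common and no shared run longer than 17 bases. In the 90 aligned bases from the first base of Magoh, the 21 differing positions are in capitals. Magohb starts 6 bases earlier and is shown from its base 7.
Magoh: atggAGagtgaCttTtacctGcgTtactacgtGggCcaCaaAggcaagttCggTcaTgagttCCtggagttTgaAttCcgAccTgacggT
Magohb: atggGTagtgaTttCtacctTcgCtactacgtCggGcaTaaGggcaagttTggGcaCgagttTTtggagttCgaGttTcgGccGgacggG

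Rbm8a (ENSMUSG00000038374) encodes the RNA-binding partner of MAGOH. It lies on chromosome 3 at 96629933 to 96633791 of GRCm38, on the plus strand. Levels are given as CPM, which are counts relative to the TMM-adjusted size of a library. Rbm8a had 103, 105 and 119 CPM in the WT libraries. The Puma-/- libraries had 91.4, 98.5, 121 and 98.4 CPM. The G3 mTerc-/-Puma+/+ libraries had 207, 301, 209 and 233 CPM. Those labelled G3 mTerc-/-Puma-/- had 192, 237 and 247 CPM, with 211 CPM in replicate 2, outside the fit. The 7 fitted libraries without mTerc did not overlap the 7 libraries with mTerc, and the lowest of the former was 1.58 times the highest of the latter.

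The mean of the libraries without mTerc was 2.21 times that of the libraries with it. WT libraries averaged 109 ± 8.99 CPM (SD, n = 3) and Puma-/- libraries 102 ± 13.1 CPM (n = 4). The G3 mTerc-/-Puma+/+ group averaged 237 ± 44.2 CPM (n = 4), and the group labelled G3 mTerc-/-Puma-/- averaged 226 ± 29.5 CPM (n = 3). In the edgeR fit the log2 fold change was 1.12 (SE 0.14) for G3 mTerc-/-Puma+/+ against WT and 1.14 (SE 0.14) for the labelled G3 mTerc-/-Puma-/- group against Puma-/-. Averaged over both Puma states it was 1.13 (SE 0.10). The difference between the Puma states was 0.01 (SE 0.20). Puma-/- differed from WT by -0.09 (SE 0.14), and the groups without mTerc differed by -0.07 (SE 0.14). The comparisons against WT and against Puma-/- share no library, but both come from the same fit, and Rbm8a was chosen with this difference known. With log2 Xist as a covariate the mTerc effect was 1.04.

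**Figure D1:**
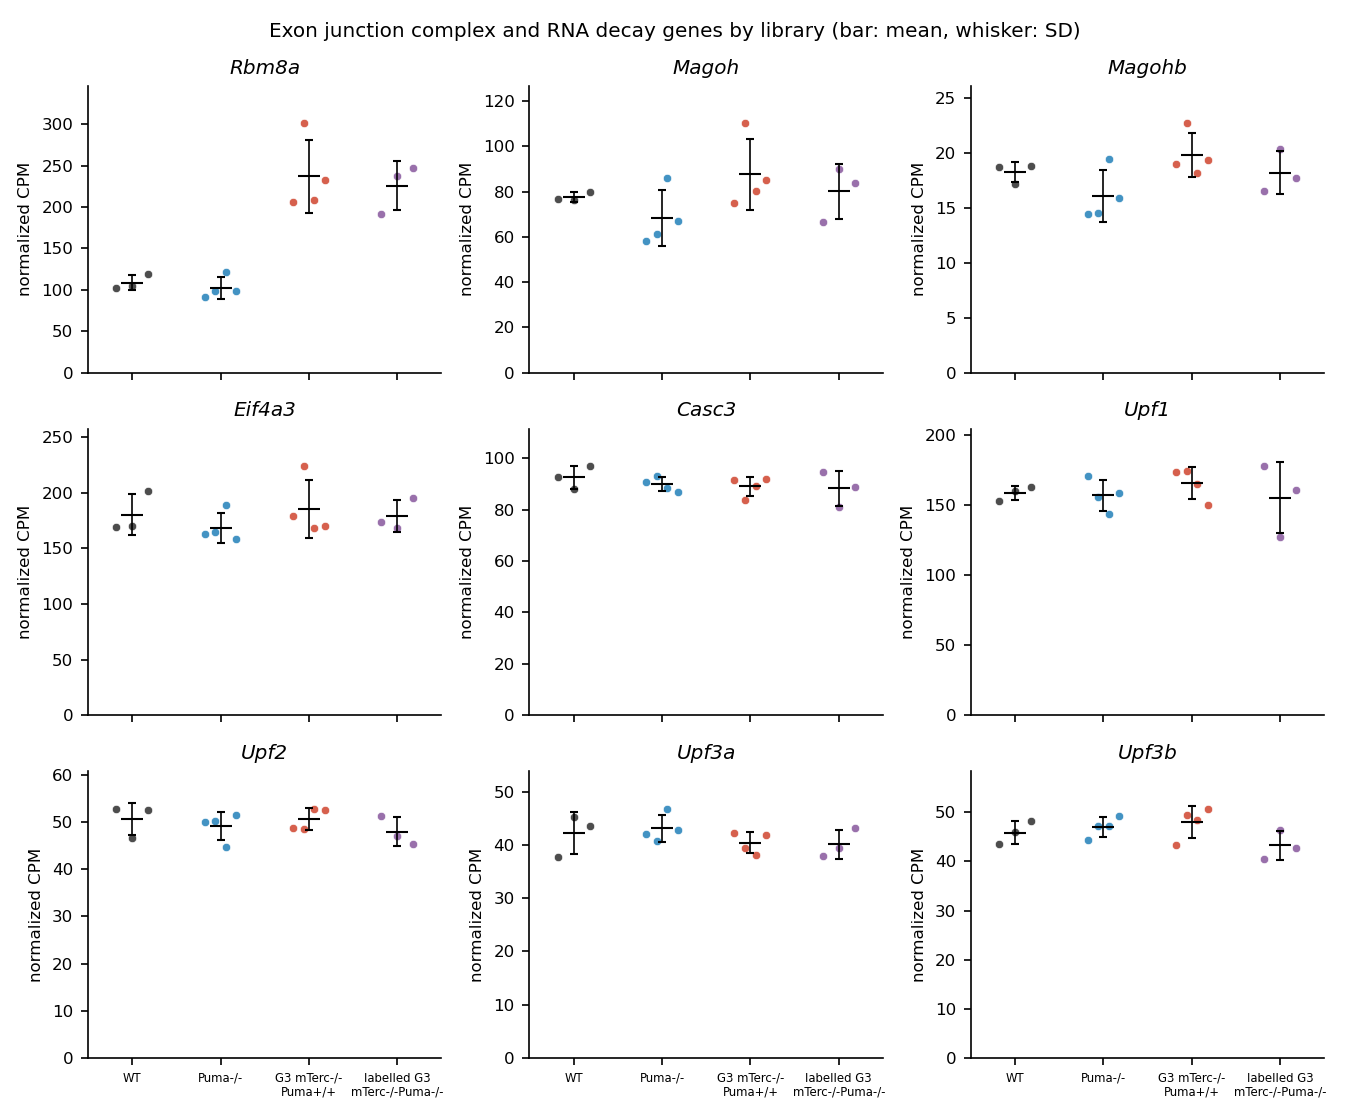
Normalized CPM (vertical axis, from 0) of the 9 genes in each of the 14 fitted libraries, grouped by genotype; points are libraries, bars the mean and whiskers the SD. Rbm8a sits between 91.4 and 121 CPM in the 7 libraries with mTerc and between 192 and 301 CPM in the 7 without it, while the groups of the other genes overlap.

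Rbm8a was the only one of the 9 genes past an adjusted p of 0.05 (edgeR) in the comparisons of mTerc, and its call follows from the choice of the set. Over all genes tested, 0.263% passed in the mTerc effect over both Puma states, 0.0369% in G3 mTerc-/-Puma+/+ against WT and 0.306% in the labelled G3 mTerc-/-Puma-/- group against Puma-/-. Of all genes, 0.158% did not overlap between the libraries with and without mTerc. None of the 9 passed in Puma-/- against WT, where 0.079% of all genes did, in the labelled G3 mTerc-/-Puma-/- group against G3 mTerc-/-Puma+/+ (0.0738%) or in the interaction of mTerc and Puma (0.0527%). At an unadjusted p under 0.05 the count of the 9 in these 3 comparisons was also 0, beside 10.1%, 6.22% and 4.93% of all genes. It was 0 with DESeq2, which called 0.716%, 0.906% and 0.337% of all genes, and with limma-voom, which called 0.0579%, 0.0632% and 0.0263%. The call of Rbm8a against WT was lost without WT replicate 1 (log2 fold change 1.06), without WT replicate 2 (1.10) and in a fit of the compared groups alone (1.12).

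The copy Rbm8a2 had few counts beside Rbm8a. It had 17 to 85 in a library, against 10437 to 31697 for Rbm8a. Its counts were 0.14% to 0.281% of those of Rbm8a in the libraries with mTerc and 0.15% to 0.292% in those without. The counts of Rbm8a2 therefore moved with Rbm8a at a like ratio, and whether they are reads of Rbm8a was not tested.

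Magoh (ENSMUSG00000028609, chromosome 4) encodes the partner with which RBM8A forms the heterodimer. Its levels were 76.8, 76.2 and 80.1 CPM in WT and 58.3, 61.5, 86.1 and 67.1 CPM in Puma-/-. They were 75.1, 110.2, 80.1 and 85.1 CPM in G3 mTerc-/-Puma+/+ and 66.7, 90.1 and 84.0 CPM in the labelled G3 mTerc-/-Puma-/- libraries. The genotypes overlapped. The log2 difference of libraries without and with mTerc was 0.20 (SE 0.11), the largest after Rbm8a, and 0.10 with Xist as a covariate.

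Magohb (ENSMUSG00000030188, chromosome 6) encodes a near-identical protein and was the lesser expressed of the pair. The WT libraries had 18.7, 17.2 and 18.8 CPM and the Puma-/- libraries 14.5, 14.5, 19.5 and 15.9 CPM. The G3 mTerc-/-Puma+/+ libraries had 19.0, 22.7, 18.2 and 19.3 CPM, and those labelled G3 mTerc-/-Puma-/- had 16.5, 20.4 and 17.8 CPM. These ranges overlapped, with a log2 mTerc difference of 0.15 (SE 0.09), and 0.077 with Xist as a covariate. A processed pseudogene, Gm44958, shares 30.2% of the exon bases of Magohb on the same strand and is not in the count table. Replicate 2 of the labelled G3 mTerc-/-Puma-/- group, outside the fit, had 12.9 CPM, below all 14 others.

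Eif4a3 (ENSMUSG00000025580, chromosome 11), the DEAD-box helicase at the centre of the complex, ranged from 158 to 201 CPM in the libraries with mTerc and from 168 to 224 CPM in those without. Its means were 180 ± 18.2, 168 ± 13.7, 185 ± 26.3 and 179 ± 14.5 CPM in the order of the groups above, and its log2 mTerc difference was 0.06 (SE 0.08). Casc3 (ENSMUSG00000078676, chromosome 11) varied little, from 81.2 to 96.9 CPM over all 14 libraries, with a log2 mTerc difference of -0.04 (SE 0.05). An antisense gene, Gm12359, overlaps 11.5% of the exon bases of Casc3. Its 107 to 198 counts were few beside the 8530 to 15114 counts of Casc3.

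Among the decay factors, Upf1 (ENSMUSG00000058301, chromosome 8) had the highest CPM, from 144 to 171 with mTerc and from 128 to 178 without. The log2 mTerc difference was 0.02 (SE 0.07). Upf2 (ENSMUSG00000043241, chromosome 2), the bridge between UPF1 and UPF3, ranged from 44.8 to 52.7 CPM with mTerc and from 45.4 to 52.8 CPM without, a log2 difference of -0.02 (SE 0.05). The highest Upf2 library was 1.18 times the lowest, the narrowest range of the 9 genes.

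Upf3a (ENSMUSG00000038398, chromosome 8) ranged from 37.7 to 46.8 CPM with mTerc and from 37.9 to 43.1 CPM without, a log2 difference of -0.08 (SE 0.06). Its paralogue Upf3b (ENSMUSG00000036572), on the X chromosome, had 43.4 to 49.2 CPM with mTerc and 40.5 to 50.7 CPM without, a log2 difference of -0.03 (SE 0.05). Upf3b was the gene with the lowest value against G3 mTerc-/-Puma+/+ in the labelled G3 mTerc-/-Puma-/- group, at -0.15 (SE 0.07). With replicate 2 of that group, which had 55.3 CPM, this value was -0.05. Xist in the 4 libraries of that group ran from 0.388 to 663 CPM, and its part in the X-linked Upf3b was not tested.

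**Figure D2:**
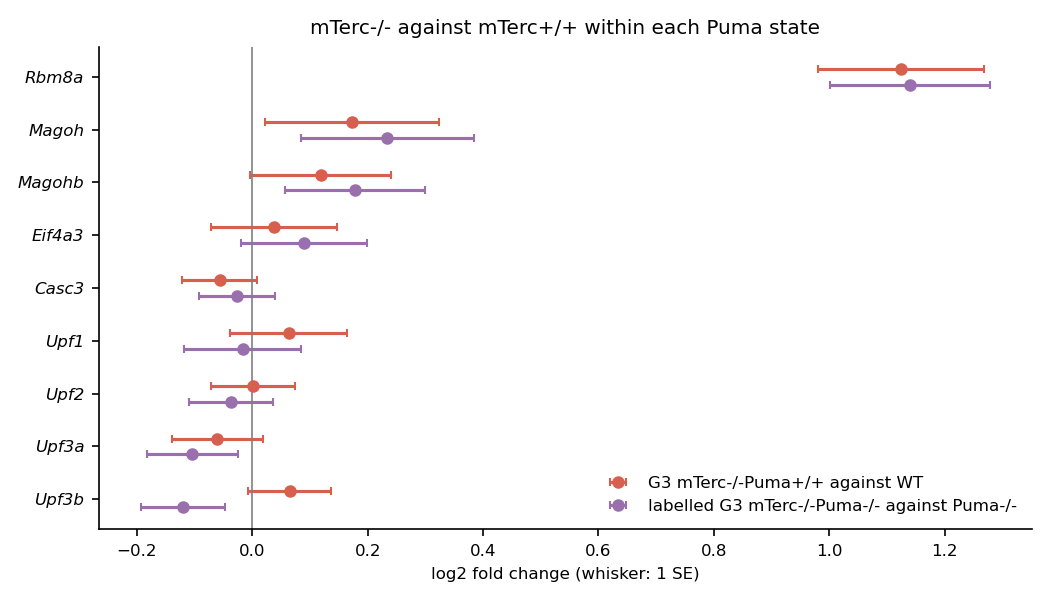
Log2 fold change (horizontal axis) of libraries without mTerc against those with it, for the 9 genes in each Puma state; points are edgeR estimates and whiskers 1 SE. Rbm8a sits at 1.12 and 1.14, and the other 8 genes lie between -0.12 and 0.23.

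The median log2 mTerc effect of the 9 genes was 0.02, and of all genes 0.01. Without Rbm8a, the largest absolute log2 value of the other genes was 0.20 in the mTerc effect. The typical gene had an absolute log2 value of 0.10 and an SE of 0.13 in the same fit.

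Levels were then compared between genes per kilobase of merged exons. In WT, Magoh (101 ± 2.69 CPM per kb, SD, n = 3) was highest, ahead of Eif4a3 (85.0 ± 8.57). Upf1 (34.5 ± 1.09) and Rbm8a (33.8 ± 2.80) came next, with overlapping libraries. Casc3 followed at 21.5 ± 1.04 CPM per kb. Upf3b (11.5 ± 0.588) and Magohb (10.6 ± 0.535) also overlapped, while Upf2 (9.25 ± 0.633) and the lowest, Upf3a (7.19 ± 0.676), were each below the gene before them in all 3 libraries. In G3 mTerc-/-Puma+/+, Rbm8a reached 73.8 ± 13.7 CPM per kb, above Upf1 at 36.0 ± 2.48 and still below Eif4a3 at 87.3 ± 12.4. The order depended on the length used. With the longest annotated transcript, Eif4a3 (mean 119.6 CPM per kb) and Magoh (mean 112 CPM per kb) exchanged places in WT within the spread of Eif4a3 (SD 12.0), and Rbm8a (39.5 ± 3.26) stood above Upf1.

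The RNA balance of the heterodimer partners was read as a ratio within each library, which cancels its scaling. It does not measure the proteins. The difference of Rbm8a, by which the set was chosen, also enters this ratio. Per kilobase, Rbm8a stood to Magoh at 0.335 ± 0.0189 in WT (SD, n = 3) and 0.362 ± 0.0212 in Puma-/- (n = 4). It was 0.648 ± 0.0164 for G3 mTerc-/-Puma+/+ (n = 4) and 0.675 ± 0.0394 for the group labelled G3 mTerc-/-Puma-/- (n = 3). Single libraries with mTerc lay between 0.320 and 0.384, and those without between 0.624 and 0.705. The ratio thus varied less between libraries of a genotype than Rbm8a itself did, with an SD of 2.53% to 5.86% of the mean in the 4 groups against 8.27% to 18.6% for the CPM of Rbm8a.

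Against Eif4a3, the ratio of Rbm8a was 0.398 ± 0.0077 for WT and 0.400 ± 0.0236 for Puma-/-. It was 0.843 ± 0.0648 for G3 mTerc-/-Puma+/+ and 0.832 ± 0.102 for the group labelled G3 mTerc-/-Puma-/-. Magoh to Magohb, in contrast, was 9.53 ± 0.375, 9.44 ± 0.357, 9.84 ± 0.831 and 9.82 ± 0.778 in the same order, and its groups overlapped.

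**Figure D3:**
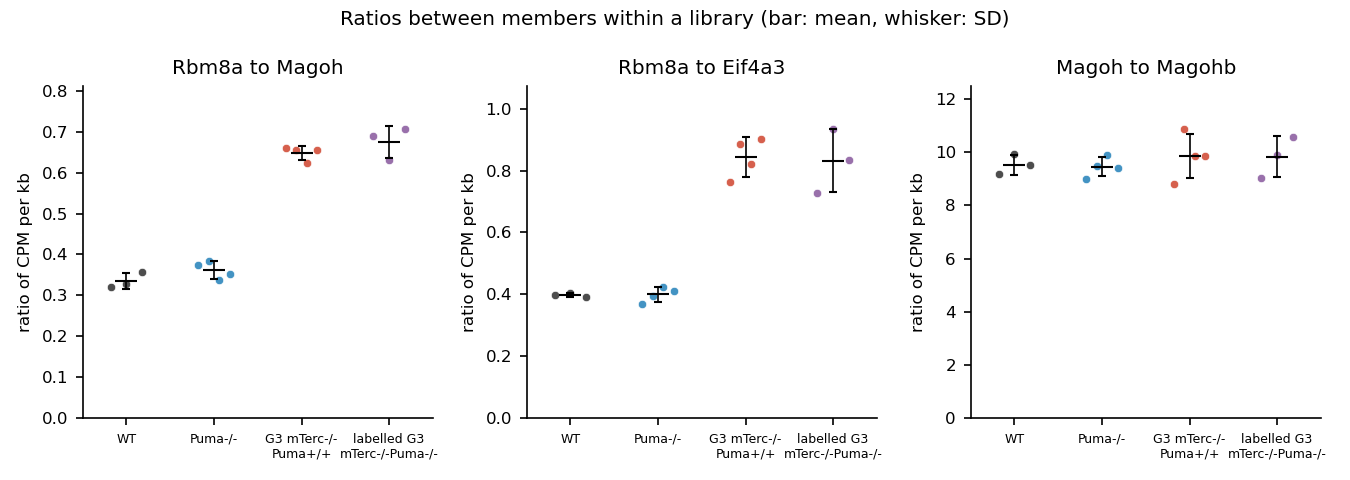
Ratio of CPM per kb of merged exons (vertical axis, from 0) between pairs of genes in each library, by genotype; points are libraries, bars the mean and whiskers the SD. Rbm8a to Magoh is at most 0.384 in libraries with mTerc and at least 0.624 in those without, while Magoh to Magohb overlaps between all groups.

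Some of the 9 genes varied together between libraries, and others did not. G3 mTerc-/-Puma+/+ replicate 2 had the highest value of the 14 libraries for Rbm8a, Magoh, Magohb and Eif4a3. Puma-/- replicate 3 had the highest of its group for the same 4 genes. In every genotype the fitted library with the lowest Xist had the highest Magoh and Magohb. These were WT replicate 3 (Xist 1.73 CPM), Puma-/- replicate 3 (466 CPM), G3 mTerc-/-Puma+/+ replicate 2 (0.177 CPM) and labelled G3 mTerc-/-Puma-/- replicate 3 (0.388 CPM). The part of Xist in the relations below was not tested. Of 44 relations computed on log2 CPM, 28 were between genes other than Rbm8a over all 14 libraries. The other 16 were between Rbm8a and each gene within the 7 libraries of 1 mTerc state, since Rbm8a fell into separate clusters. Every relation pooled more than 1 genotype, so differences between genotypes enter r and its permutation p. After adjustment over the 44, 3 had a permutation p under 0.05 for Pearson's r.

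Magoh and Magohb gave the closest relation, with r = 0.952 and rho = 0.890 over 14 libraries. The permutation p (100000 permutations, two-sided) was 2e-05 for r, the smallest these can give, and 6e-05 for rho, and the adjusted values were 0.00088 and 0.00264. Without the 2 libraries farthest from the median of Magoh, r was 0.907. Within the libraries with mTerc it was 0.976, and within those without it 0.913.

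Rbm8a and Magoh were related within both mTerc states. With mTerc, r was 0.905 and rho 0.929 (exact permutation p = 0.00159 and 0.00675, adjusted 0.0349 and 0.0742), and r was 0.914 without the 2 libraries farthest from the median of Rbm8a. Without mTerc, r was 0.959 and rho 0.893 (exact permutation p = 0.00278 and 0.0123, adjusted 0.0407 and 0.108), and r fell to 0.800 without the 2 farthest. Only Pearson's r passed the adjustment for this pair. Relations of Eif4a3 with Magoh (r = 0.714, permutation p = 0.00482, adjusted 0.053) and with Magohb (r = 0.658, permutation p = 0.00784, adjusted 0.0575) did not pass. None of the relations of Casc3 or of the Upf genes passed, and some were negative, such as Casc3 with Magoh (r = -0.53, permutation p = 0.0535, adjusted 0.235) and Upf2 with Upf3a (r = -0.55, permutation p = 0.0459, adjusted 0.224).

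**Figure D4:**
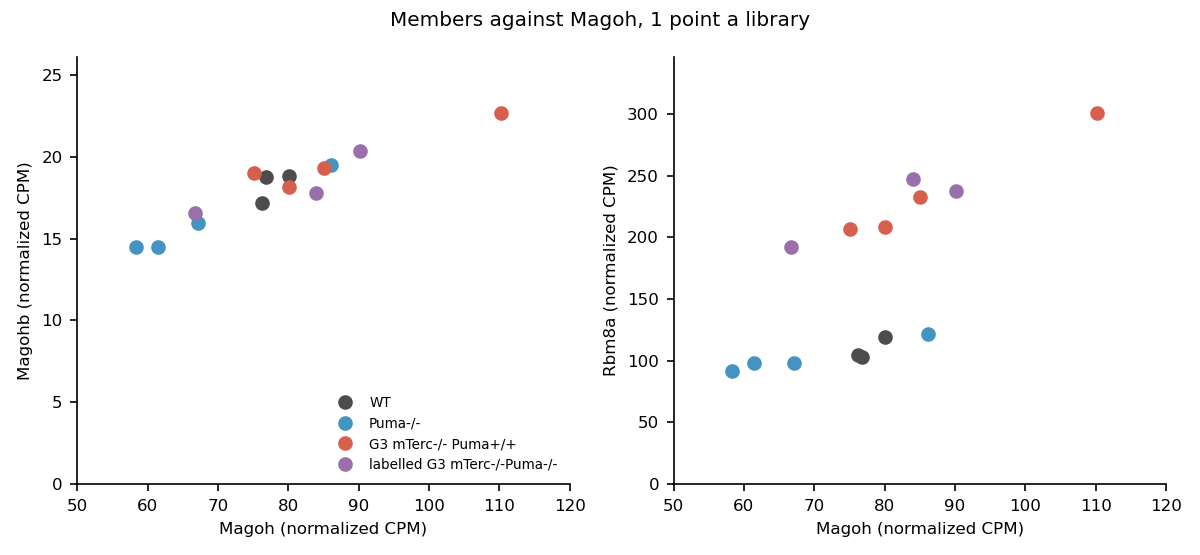
Normalized CPM of Magohb (left) and of Rbm8a (right) against Magoh (horizontal axis, starting at 50), 1 point for each of the 14 libraries, coloured by genotype. Magohb follows Magoh in a single band (r = 0.952), and Rbm8a forms separate bands with and without mTerc.

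Because Magoh and Magohb varied together, the sequence around their starts is shown. It runs from 100 bases before to 20 bases after each RefSeq start of GRCm38.p6, 5′ to 3′ on the strand of the gene, on chr4:107879655-107879774 (plus) and chr6:131293225-131293344 (minus). Capitals mark ACGTCA on either strand, a motif chosen after the sequences were seen. The matches in Magohb overlap as the palindrome.
Magoh: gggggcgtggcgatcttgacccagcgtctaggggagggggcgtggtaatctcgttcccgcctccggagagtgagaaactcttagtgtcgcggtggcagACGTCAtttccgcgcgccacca
Magohb: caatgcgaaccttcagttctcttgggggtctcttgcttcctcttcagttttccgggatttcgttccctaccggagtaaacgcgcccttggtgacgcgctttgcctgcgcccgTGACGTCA

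Of 7 members with such a window, Magoh and Magohb were the 2 with ACGTCA, a motif in 4.75% of 32851 windows of this length. Rbm8a, which also varied with Magoh, and Casc3 had no window and were not searched. As the motif was picked from these sequences, that share is no test of it. Neither held a TATA box, searched as TATAAA on both strands, which was in 6.1% of all windows. The CCAAT box (20.8% of all windows) and the GC box, searched as GGGCGG (26.7%), were also without a match. A match of letters is a description and no evidence of a bound factor.

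Genes around Terc were examined next, since Rbm8a lies 215 kb from it. Terc is on the minus strand of chromosome 3 at 96414437 to 96414859, and 18 annotated genes lie between it and Rbm8a, 7 of them tested. Rbm8a apart, 69 tested genes lay within 1 Mb of Terc. None of these passed in the mTerc effect (edgeR, adjusted p under 0.05, where 0.263% of all genes did), and 5 had an unadjusted p under 0.05, where 7.76% of all genes did. With DESeq2 (1.33% of all genes called), or without WT replicate 3 (0.562%), 1 of them passed, Ankrd35, which was lower without mTerc (log2 fold change -1.19 with DESeq2, -1.38 without that library) at a mean of 0.839 CPM. Ankrd35 had a log2 mTerc effect of -1.19 in the main fit (SE 0.25, edgeR adjusted p = 0.0791). This was similar in size to that of Rbm8a and opposite in sign. Within 5 Mb, none of 152 genes passed, and 11 had an unadjusted p under 0.05. Under the same alternatives a further gene of this wider window passed, Gm128, which also passed with no count filter (0.206% of all genes called). Gm128, named after its values were seen, had a log2 mTerc effect of -3.56 (SE 0.77, edgeR adjusted p = 0.0937), larger in size than that of Rbm8a. Its libraries ran from 0.670 to 9.56 CPM in WT, 0.402 to 5.89 CPM in Puma-/-, 0.206 to 1.31 CPM in G3 mTerc-/-Puma+/+ and 0.0624 to 0.132 CPM in the labelled G3 mTerc-/-Puma-/- group, so those with and without mTerc overlapped. None of the 69 or the 152 genes was without overlap between the libraries with and without mTerc, where 0.158% of all genes were. At that share none is the likely count for so few genes. Rbm8a did not overlap, but it was chosen with this pattern known.

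The nearest tested protein-coding genes on the side of Rbm8a were Txnip, Gm16253, Polr3gl and Lix1l. Lix1l, which lies next to Rbm8a, had means of 4.75 ± 0.538, 5.21 ± 0.646, 4.98 ± 0.498 and 5.40 ± 1.26 CPM (SD) in the 4 groups, taken in the same order, with a log2 mTerc effect of 0.06 (SE 0.12, edgeR adjusted p = 0.932). Polr3gl, a subunit of RNA polymerase III, had a log2 effect of -0.10 (SE 0.08, edgeR adjusted p = 0.815). Txnip, an inhibitor of thioredoxin, was at -0.19 (SE 0.13, edgeR adjusted p = 0.777), and the low Gm16253, which overlaps Polr3gl, at -0.42 (SE 0.20, edgeR adjusted p = 0.642).

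On the other side of Terc the nearest were Fcgr1, Hist2h4, Hist2h3c2 and Hist2h2be. Fcgr1, the high-affinity IgG receptor of myeloid cells, had the largest of these values at 0.56 (SE 0.23, edgeR adjusted p = 0.545). The histone genes were at 0.14 (SE 0.21), 0.45 (SE 0.24) and 0.08 (SE 0.12), with edgeR adjusted p of 0.912, 0.708 and 0.914. Histone transcripts without a poly(A) tail are poorly captured by poly(A) selection.

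**Figure D5:**
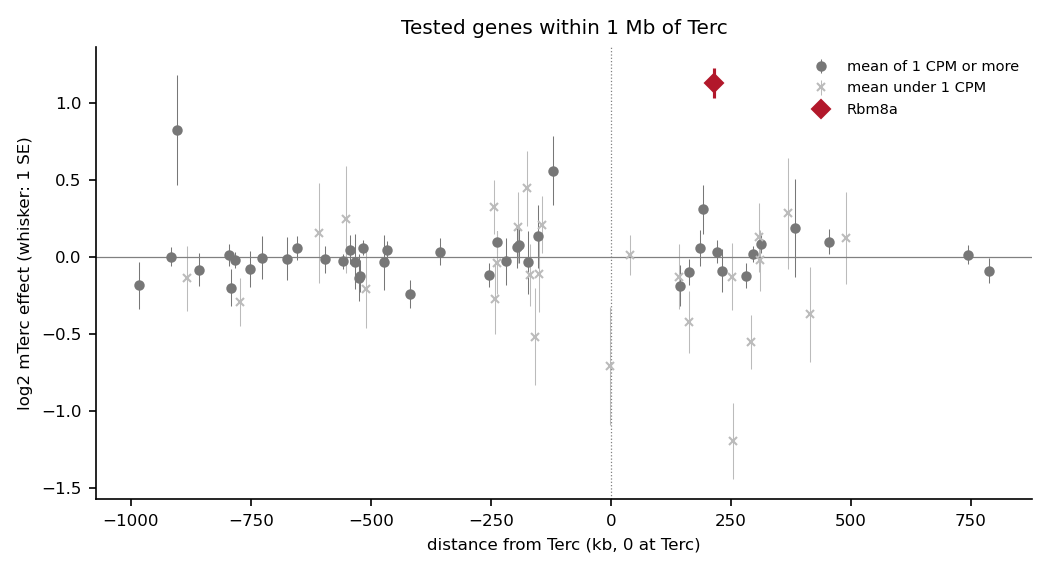
Log2 mTerc effect (vertical axis) of tested genes within 1 Mb of Terc against distance from Terc in kb (horizontal axis); filled circles are genes at a mean of 1 CPM or more, crosses lower ones, the diamond is Rbm8a, and whiskers are 1 SE. Rbm8a sits at 1.13, above the next highest gene, Ctsk, at 0.83, and the lowest gene, Ankrd35, sits at -1.19.

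Other genes of the pathway were taken from lists drawn up by function. Of 41 genes in 4 lists, 40 were tested, and none passed in any of the 6 comparisons (edgeR, adjusted p under 0.05). Of all genes, 0.0369% to 0.306% passed in these comparisons, so none of 40 is near that share. In the mTerc effect 2 of the 40 had an unadjusted p under 0.05, both higher without mTerc, a share below the 7.76% of all genes. Of the 40, 27 were above 0, with a median log2 value of 0.05 against 0.01 for all genes. DESeq2 and limma-voom also called none, where DESeq2 called 0.242% to 1.51% of all genes in the 6 comparisons and limma-voom 0.0263% to 0.306%, with 0.0316% in G3 mTerc-/-Puma+/+ against WT.

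The 11 partners of the exon junction complex, among them RNPS1, PNN and ACIN1 and the loading factor CWC22, ran from -0.03 for Acin1 to 0.11 for Ncbp2, the small cap-binding subunit. Ncbp2 had 58.1 ± 1.86, 59.3 ± 3.67, 65.7 ± 5.37 and 61.1 ± 4.26 CPM in the 4 groups in order (edgeR adjusted p over both Puma states 0.667). The 14 decay factors ran from -0.07 for Smg6, the endonuclease, to 0.18 for Gspt1, the release factor eRF3a. Gspt1 had 134 ± 14.2, 116 ± 2.32, 149 ± 21.5 and 133 ± 10.8 CPM in the 4 groups in order (SE of the log2 effect 0.07, edgeR adjusted p = 0.573). Etf1, its partner eRF1, was at 0.17 (SE 0.07, edgeR adjusted p = 0.55). The 5 decapping and exonuclease genes lay between -0.04 for Dcp1b and 0.07 for Dcp2.

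Transcripts that are known to accumulate when nonsense-mediated decay is reduced were listed too. Their levels also depend on how much is transcribed, so they do not measure decay alone. Of 11 listed, 10 were tested and none passed. Their log2 mTerc effects ran from -0.18 for Map3k14 (SE 0.11, edgeR adjusted p = 0.742) to 0.16 for Gadd45a (SE 0.22, edgeR adjusted p = 0.898), with a median of 0.03. The snoRNA hosts Gas5 (0.07, SE 0.11), Snhg12 (0.10, SE 0.12) and Zfas1 (0.14, SE 0.09) were above 0 without passing. Atf3, a stress-induced transcription factor, ranged from 5.33 to 144.7 CPM between libraries, and its log2 mTerc effect of -0.03 (SE 0.71) averaged values of opposite sign. It was -2.004 (SE 1.001, edgeR adjusted p = 0.998) in G3 mTerc-/-Puma+/+ against WT and 1.936 (SE 1.002, edgeR adjusted p = 0.645) in the labelled G3 mTerc-/-Puma-/- group against Puma-/-. The interaction was 3.94 (SE 1.42), with an unadjusted edgeR p of 0.015 and an adjusted p of 0.855. The Puma-/- libraries had 10.7 to 13.7 CPM of Atf3, while WT libraries ran from 6.55 to 144.7 CPM.

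The genes whose log2 CPM followed Rbm8a most closely over the 14 libraries were named by Pearson's r. This is a description, since the pattern of Rbm8a was chosen beforehand and its libraries fall into separate clusters. They were a gene without a symbol in the annotation (ENSMUSG00000064168, r = 0.901), Gm16433 (0.889), Bax (0.879), Pvt1 (0.871) and Rbm8a2 (0.863). Bax, an apoptosis effector and p53 target, had 67.8 to 88.0 CPM with mTerc and 82.8 to 120.9 CPM without. Pvt1, a long noncoding RNA beside Myc, had 1.51 to 3.26 CPM with mTerc and 4.36 to 8.92 CPM without. The most opposite were Pcsk1 (-0.890), Tex38 (-0.866) and Iglj1 (-0.862), all with a mean of at most 0.124 CPM.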

How the data were processed

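The authors made poly(A)-selected, stranded libraries (TruSeq), and per the labels' processing notes Trimmomatic 0.38 and STAR 2.5.2b were used on mm10. The deposited values are raw counts per Ensembl gene for 15 libraries. The strand setting of the counting and the annotation release are not given in the sources used here, so reads of overlapping antisense genes may be included.

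Symbols, exon lengths and coding sequences came from GENCODE mouse release M21 on GRCm38, and start-site windows from RefSeq. edgeR 4.0.16 (R 4.3.3) fitted 14 libraries of all 4 genotypes with TMM, filterByExpr and the quasi-likelihood test, calling genes at an adjusted p under 0.05 (Benjamini-Hochberg over 18983 genes). The biological coefficient of variation was 0.251. CPM use TMM library sizes, and log2 CPM for likeness a prior count of 2. SE are the log2 fold change divided by the root of F. The scripts were tested on simulated data. The 9 genes, the lists and the comparisons were chosen with earlier results of these data known. Genes named were the 9, the targeted and sex genes, copies of members, the 4 nearest tested coding genes on each side of Terc, the 5 most alike and 3 most opposite to Rbm8a, and the extremes of each list and every list gene past the threshold. Other genes are named where said. Alternatives were all 15 libraries, library size alone, no count filter, a replicate block, DESeq2 1.42.0, limma-voom (limma 3.58.1), Xist as a covariate, the compared groups alone, leaving out each library, 5 Mb in place of 1 Mb, and the longest transcript as length. The principal coding transcript as length was chosen after seeing the data. The labels do not say that replicates came from separate animals, and p-values then measure the spread between these libraries.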

Additional observations from a re-analysis of the deposited data

How the results depend on the processing

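Of 1170 recomputed log2 fold changes of the 9 genes, 1167 moved by less than 1 SD between libraries of a genotype, and none of the called values changed sign. The other 3 were Upf3b with all 15 libraries. The log2 mTerc effect of Rbm8a, by which the set was chosen, ran from 1.04 to 1.18 over the alternatives. The number of the 9 genes called in G3 mTerc-/-Puma+/+ against WT, 1, was 0 in a fit of the compared groups alone and 0 to 1 on leaving out 1 library. The count of genes called within 1 Mb of Terc, 0, was 1 with DESeq2 and 0 to 1 on leaving out 1 library (Ankrd35). Within 5 Mb, Gm128 also passed with DESeq2, with no count filter and without WT replicate 3. The per-length ratio of Rbm8a to Magoh in WT, 0.335 from the group means, was 0.372 with the principal coding transcript. All other counts of members and pathway genes called were the same under the alternatives run. The counts over all genes were less stable. In the mTerc effect, 50 genes were called in all, 23 with the replicate block, 109 without WT replicate 3 and 252 with DESeq2, and the causes were not tested.

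Of 18 pairs of libraries with the same replicate number, 3 had deviations from their group means that correlated over 0.1 (range -0.253 to 0.175). Pairs with different numbers ran from -0.246 to 0.254. Libraries of the same number were thus no more alike than others. With 3 or 4 libraries a group, these values cannot exclude a pairing. With the replicate block the log2 mTerc effect of Rbm8a was 1.14, which is a description, since that effect chose the set.

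At 3 or 4 libraries a group, differences of the size seen for Magoh and Magohb could not be told from the spread. Counting error is small at this depth, since the lowest member, Magohb, had at least 1503 counts in each library.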
